A study of Caenorhabditis elegans with 12 samples.

Results

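The cathepsin-like cysteine proteases of Caenorhabditis elegans were followed through a shift from a warm to a cooler temperature. The group holds 10 genes of the 17118 named on the arrays, grouped as a family by their symbols: the cathepsin B-like genes cpr-1, cpr-2, cpr-3, cpr-4, cpr-5, cpr-6 and cpr-8, the cathepsin L gene cpl-1, and the cathepsin Z-like genes cpz-1 and cpz-2. They were read by 12 probe sets, each a group of oligonucleotides matched to a transcript, since cpr-3 and cpl-1 have more than 1. Where a gene has several, the brightest one on average stands for it.

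These enzymes belong to the papain family, in which an active-site cysteine cuts the peptide bond. They are made as inactive precursors and work best in acidic compartments, where lysosomal members break down proteins delivered for degradation. In the nematode intestine, related enzymes also digest the bacteria the animal eats, and cystatins are the protein inhibitors that hold the family in check.

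All 12 arrays came from whole adults of the wild-type strain N2 Bristol, grown at 23 °C for 2.5 days after plating as embryos, then shifted to 17 °C. The 4 arrays of time 0 h precede the shift, and 2 arrays followed after 1 h, 2 after 2 h and 4 after 4 h at the cooler temperature. Without parallel arrays of animals left at 23 °C, temperature, elapsed time and handling cannot be told apart. Nothing in the labels says that replicates came from separate cultures, so the p-values measure the spread between these samples only, which may be technical.

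Values are log2 signals, with array medians of 5.5 to 5.57 and lower quartiles of 3.53 to 3.64. Of 49 tissue markers measured for intestine, muscle, neurons, hypodermis, pharynx and germline, 47 lay above the lower quartile on every array, and the exceptions were the neuronal genes rgef-1 and unc-31. Arrays of 4 h and 0 h that share a replicate number tended to be high or low for the same probe sets, and replicates 1 and 2 stood apart from replicates 3 and 4. The 1 h and 2 h arrays exist only for replicates 1 and 2, while their changes are taken against all 4 arrays of 0 h. Changes against replicates 1 and 2 alone are given for cpr-1, and at 2 h for cpr-3. The other changes at 1 h and 2 h may hold part of this difference between replicates. At 4 h, changes within replicates 1 and 2 and within 3 and 4 are given for cpr-1, cpr-3, cpr-4, cpr-5 and cpr-8. In RNA of whole animals, fewer cells of a type and less RNA per cell cannot be told apart.

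**Figure D1:**
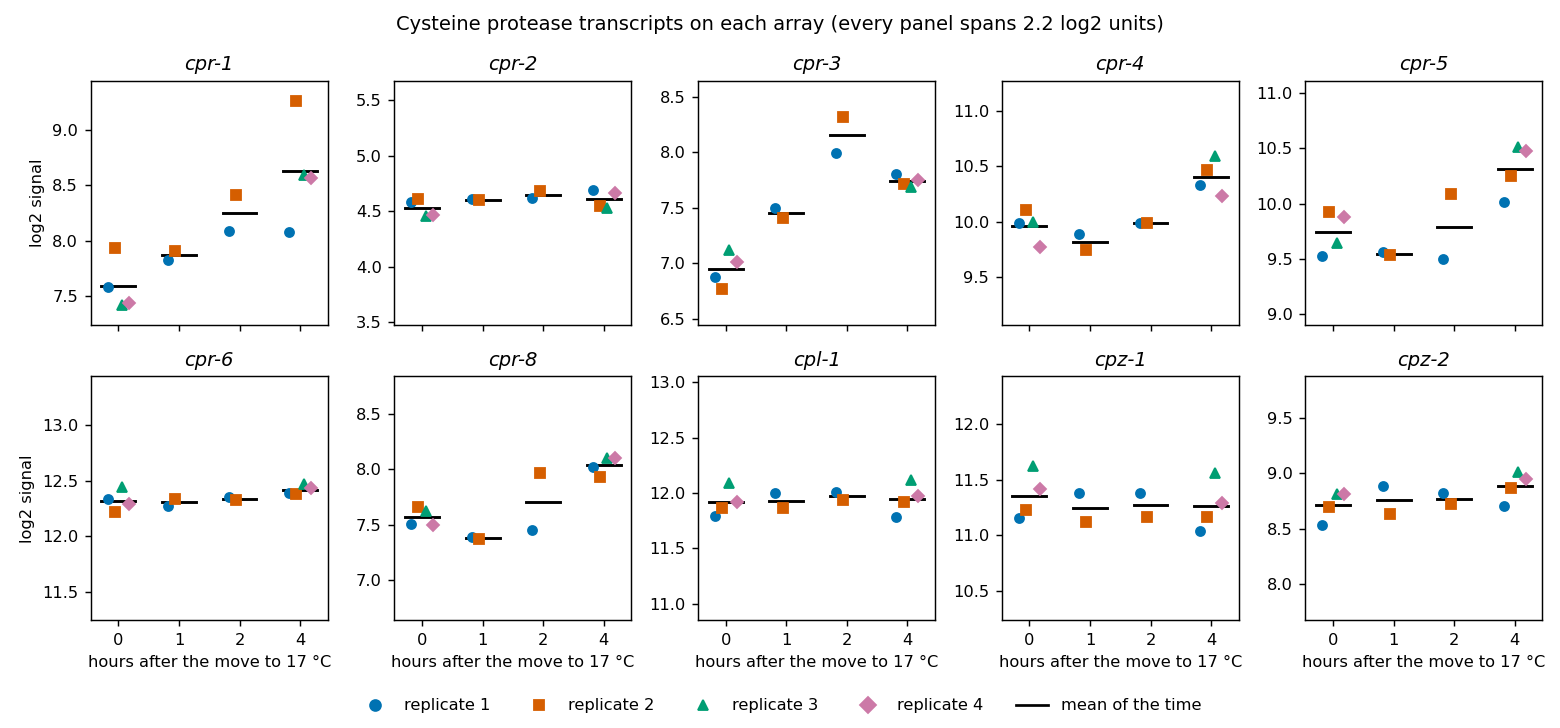
Log2 signal of the 10 cysteine protease genes on each of the 12 arrays, by hours after the move to 17 °C. Symbols mark the replicate number, black lines the mean of a time, and every panel spans the same range. The 4 h arrays of cpr-1, cpr-3, cpr-4, cpr-5 and cpr-8 all lie above their 0 h arrays, while those of the other 5 genes overlap them.

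After 4 h at 17 °C, transcripts of cpr-1, cpr-3, cpr-4 and cpr-8 were higher than before the move, and no gene of the 10 fell. Of the 10, 4 rose, 0 fell and 6 did not pass in limma at an adjusted p under 0.05, a level at which 1.44% of all 17118 genes rose and 1.04% fell. At an unadjusted p under 0.05, 5 of the 10 were higher and 0 lower, where 13% of all genes differed in either direction. The 4 h arrays lay wholly above the 0 h arrays for 5 of the 10 genes, against 4.58% of all genes. The 10 genes were chosen with earlier results of these data known, so the shares here and below are a description only. The median change of the 10 was 0.31 log2 units, and that of all genes was -0.01. All 4 genes that rose encode cathepsin B-like enzymes, the class that makes up most of the 10. The cathepsin L gene and both cathepsin Z-like genes did not pass, nor did the cathepsin B-like genes cpr-2, cpr-5 and cpr-6.

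The largest change at 4 h within the group was that of cpr-1, a cathepsin B-like protease gene known for its expression in the gut. Its log2 signals were 7.58, 7.93, 7.42 and 7.44 on the 0 h arrays, 7.83 and 7.91 at 1 h, 8.09 and 8.42 at 2 h, and 8.08, 9.26, 8.59 and 8.57 at 4 h. The means climbed at each time, and the 2 h and 4 h arrays lay above all 0 h arrays. At 4 h the mean was 8.62 ± 0.49, against 7.59 ± 0.24 at 0 h (SD, n = 4 each), a log2 change of 1.03 (2.04-fold, SE 0.197, limma adjusted p = 0.0138). The 4 h spread was wide: between arrays of the same replicate number the difference was 0.50, 1.33, 1.18 and 1.13 for replicates 1 to 4. The change was 0.91 within replicates 1 and 2 and 1.15 within replicates 3 and 4. Leaving out replicate 3 or 4 at 0 h ended the call (adjusted p up to 0.0519), and over 24 alternatives the adjusted p ran from 0.00318 to 0.463. The changes at 1 h (0.28, adjusted p = 0.909) and 2 h (0.66, adjusted p = 0.263) did not pass. Against replicates 1 and 2 at 0 h alone they were smaller, 0.11 at 1 h and 0.50 at 2 h. In replicate 2 the 1 h array (7.91) lay just under its 0 h array (7.93).

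The gene cpr-3, also cathepsin B-like, had its highest values at 2 h. Its log2 signals were 6.88, 6.77, 7.12 and 7.01 on the 0 h arrays, 7.50 and 7.41 at 1 h, 8.0 and 8.32 at 2 h, and 7.81, 7.71, 7.69 and 7.75 at 4 h. No array of one time overlapped those of another, and the order from low to high was 0 h, 1 h, 4 h and 2 h. At 2 h the transcript was 2.32-fold higher than at 0 h (log2 change 1.21, SE 0.113, limma adjusted p = 0.000416). It was the 1 gene of the 10 called at 2 h, where 0.707% of all genes rose. At 4 h it was still 1.73-fold higher than at 0 h (log2 change 0.79, SE 0.092, adjusted p = 0.000526).

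The change at 1 h (0.51, SE 0.113) had an unadjusted p of 0.000587 and missed the threshold after adjustment (adjusted p = 0.295). In limma 0 of the 10 genes passed at 1 h, as did 0% of all genes. At an unadjusted p under 0.05 it was 1 of the 10, cpr-3, where 6.44% of all genes had such a p. From 2 h to 4 h cpr-3 changed by -0.42 (95% interval -0.66 to -0.18, adjusted p = 0.254). All 4 arrays at 4 h lay below both arrays at 2 h, but 0 of the 10 genes passed in this comparison, in which 0.0701% of all genes did. In the same comparison 4 of the 10 had an unadjusted p under 0.05 in limma, as had 11.1% of all genes.

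The second probe set of cpr-3 gave the same course. Its mean log2 signals were 6.75 ± 0.27 at 0 h (n = 4), 7.23 ± 0.01 at 1 h (n = 2), 8.06 ± 0.23 at 2 h (n = 2) and 7.56 ± 0.03 at 4 h (SD, n = 4). It rose by 1.31 at 2 h (adjusted p = 0.000992) and by 0.81 at 4 h (adjusted p = 0.00243). Both probe sets carry the suffix that marks oligonucleotides able to bind other transcripts, so a share of signal from related genes was not tested.

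No call of cpr-3 at 2 h or 4 h was lost without any single array. The 4 h change was 0.94 within replicates 1 and 2 (adjusted p = 0.0465) and 0.65 within replicates 3 and 4 (adjusted p = 0.0566). The 2 h change against replicates 1 and 2 at 0 h alone was 1.34 (adjusted p = 0.059, 4 arrays). Over 22 alternatives at 2 h the adjusted p ran from 2.28e-05 to 0.059, and over 23 at 4 h from 7.66e-05 to 0.0566. Markers of pharynx and muscle are given beside the 2 h change. The median of 7 pharynx markers, relative to each gene's mean, lay at 0.10 to 0.15 at 2 h, against -0.11 to -0.03 at 0 h, and that of 7 muscle markers at 0.04 to 0.25, against -0.11 to 0.05. The ranges were apart for the pharynx and overlapped for muscle. At 4 h the pharynx median lay at -0.19 to 0.00. The summed linear signal of the pharynx markers was 632 to 743 at 2 h, against 533 to 570 at 0 h, and that of the muscle markers 7819 to 8675, against 6807 to 7588. The sum of the pharynx list mainly follows tni-3, with a mean log2 signal of 8.335 over all arrays, against 6.053 for the next, myo-1. The lists placed tni-3 with the pharynx and tni-4 with muscle. Neither placement was checked, and each gene may belong in the other list. The pharynx and muscle values are therefore those of the lists as drawn, and the pharynx sum cannot be read as signal from the pharynx. The probe set of tni-3 also carries the suffix for oligonucleotides able to bind other transcripts. All 8 germline markers had changes below 0 at 2 h (median -0.10), and 0 of them, or of the pharynx and muscle markers, passed in limma. At an unadjusted p under 0.05, 3 pharynx (tni-3 among them), 0 muscle and 0 germline markers differed at 2 h, where 12.8% of all genes did. Their part in the change of cpr-3 was not tested.

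**Figure D2:**
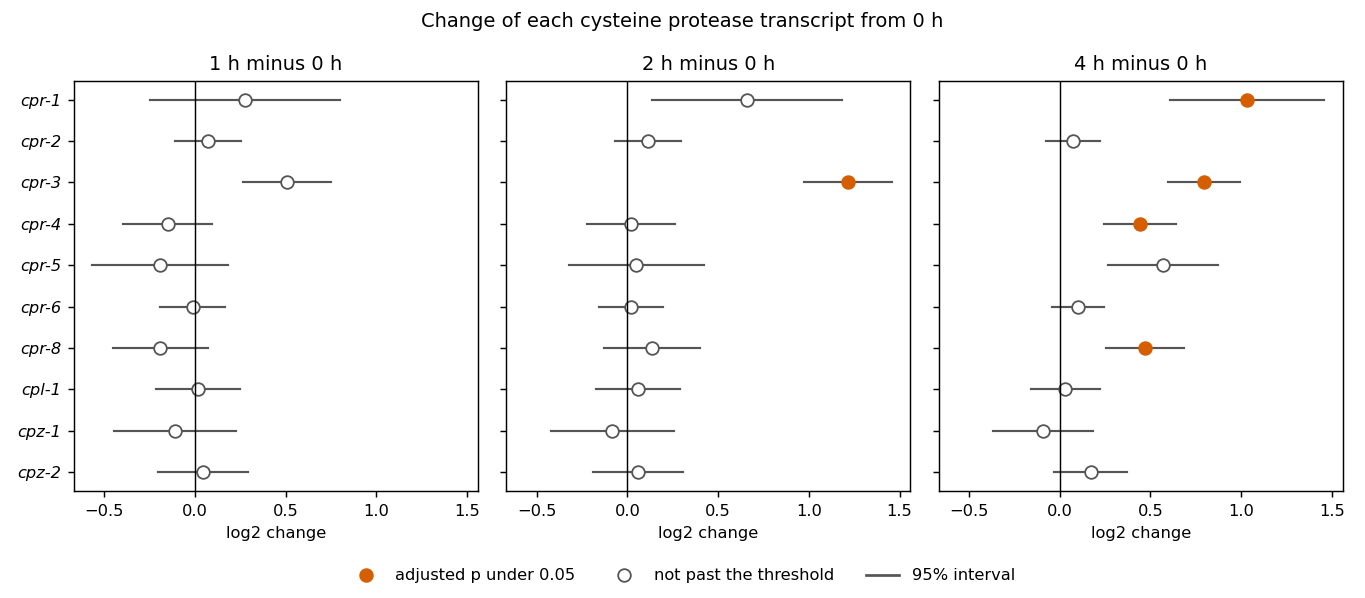
Log2 change from 0 h of each cysteine protease gene at 1 h, 2 h and 4 h, with 95% intervals from the linear model. Filled points have an adjusted p under 0.05: none at 1 h, cpr-3 at 2 h (1.21), and cpr-1 (1.03), cpr-3 (0.79), cpr-4 (0.44) and cpr-8 (0.47) at 4 h.

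The gene cpr-4 encodes a cathepsin B-like enzyme known to be secreted. Its log2 signals were 9.9898, 10.1005, 9.9927 and 9.7738 at 0 h, 9.8838 and 9.7445 at 1 h, 9.9849 and 9.9842 at 2 h, and 10.3334, 10.4634, 10.5885 and 10.2345 at 4 h. The 1 h and 2 h arrays lay within or just under the 0 h range, and every 4 h array lay above it. At 4 h the log2 change was 0.44 (1.36-fold, SE 0.0921, limma adjusted p = 0.0231), with 0.35 within replicates 1 and 2 and 0.53 within replicates 3 and 4. At 2 h it was 0.02 (95% interval -0.22 to 0.26). The 4 h call was lost without any one of replicates 1, 3 and 4 at 0 h and replicates 2 and 3 at 4 h (adjusted p up to 0.0758), and its adjusted p ran from 0.00392 to 0.339 over 24 alternatives.

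The cathepsin B-like genes cpr-8 and cpr-5 are direct neighbours in the RefSeq annotation (assembly WBcel235), with the papain-like gene W07B8.4 on the other side of cpr-5. For cpr-8 the log2 signals were 7.50, 7.66, 7.62 and 7.50 at 0 h, 7.39 and 7.37 at 1 h, 7.45 and 7.96 at 2 h, and 8.02, 7.93, 8.1 and 8.1 at 4 h. Both 1 h arrays lay below all 0 h arrays, the 2 h arrays lay on either side of them, and all 4 h arrays lay above. At 4 h it was 1.38-fold higher than at 0 h (log2 change 0.47, SE 0.0993, adjusted p = 0.0257), with 0.39 within replicates 1 and 2 and 0.54 within replicates 3 and 4. The change at 1 h (-0.19, adjusted p = 0.847) did not pass. The 4 h call was lost without any one of replicates 1, 3 and 4 at either time (adjusted p up to 0.0814), and over 24 alternatives the adjusted p ran from 0.00466 to 0.547.

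Its neighbour cpr-5 gave 9.52, 9.92, 9.64 and 9.88 at 0 h, 9.56 and 9.53 at 1 h, 9.5 and 10.08 at 2 h, and 10.02, 10.25, 10.51 and 10.47 at 4 h. As with cpr-8, the 2 h arrays lay apart, replicate 1 below and replicate 2 above the 0 h range, and all 4 h arrays lay above it. The log2 change at 4 h was 0.57 (1.48-fold, SE 0.141) and missed the threshold (adjusted p = 0.0553). Fitted on the 8 arrays of these times alone, it passed in limma without the replicate number (adjusted p = 0.041). Once the replicate number was entered as a block, it passed as well (adjusted p = 0.0271 over 12 arrays and 0.0303 over the 8 of these times). That these numbers pair the 0 h and 4 h arrays was inferred from the same values and is not given by the labels. Over all 23 alternatives its adjusted p ran from 0.0216 to 0.648, with 11 under the threshold. It was 0.41 within replicates 1 and 2 and 0.73 within replicates 3 and 4. The next gene, W07B8.4, changed by 0.35 at 4 h (95% interval 0.07 to 0.62, adjusted p = 0.25). The probe sets of cpr-5 and W07B8.4 carry the suffix for oligonucleotides shared between transcripts, while that of cpr-8 does not.

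**Figure D3:**
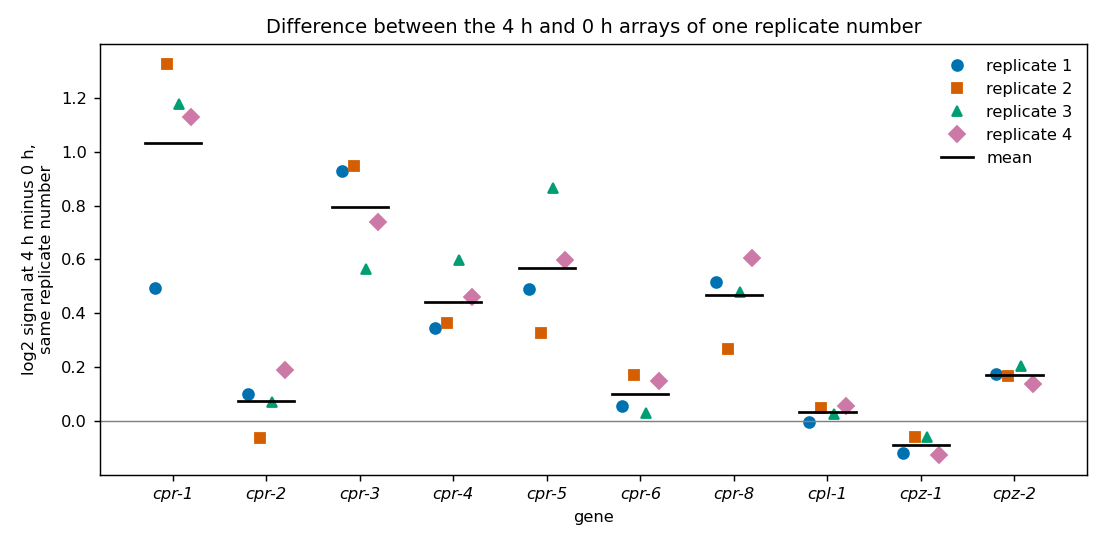
Log2 signal at 4 h minus that at 0 h between arrays of the same replicate number, for each cysteine protease gene. Symbols mark the replicate number and black lines the mean. All 4 differences lie above 0.25 for cpr-1, cpr-3, cpr-4, cpr-5 and cpr-8, and those of cpl-1 lie between 0.00 and 0.06.

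The other cathepsin B-like genes of the 10, cpr-2 and cpr-6, did not pass at any time. The signal of cpr-2 lay between the lower quartile and the median of the arrays throughout, at 4.46 to 4.61 at 0 h, 4.61 and 4.6 at 1 h, 4.61 and 4.68 at 2 h, and 4.53 to 4.69 at 4 h. The 4 h arrays overlapped those of 0 h, and both 2 h arrays lay just above all 0 h arrays (change 0.12, adjusted p = 0.634). The 4 h change was 0.08 (95% interval -0.07 to 0.22, adjusted p = 0.759). The bright cpr-6 lay at 12.21 to 12.44 at 0 h, 12.275 and 12.341 at 1 h, 12.36 and 12.32 at 2 h, and 12.38 to 12.47 at 4 h. Its 4 h change was 0.10 (95% interval -0.04 to 0.25, adjusted p = 0.628), so a change of the size seen in cpr-4 lies outside the interval.

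The cathepsin L gene cpl-1, needed for embryonic development and known for yolk processing, did not pass at any time. Its log2 signals were 11.79, 11.87, 12.09 and 11.92 at 0 h, 12.003 and 11.861 at 1 h, 12.01 and 11.94 at 2 h, and 11.79, 11.92, 12.12 and 11.97 at 4 h. Arrays of the same replicate number were close, with differences between 4 h and 0 h of 0.00, 0.05, 0.03 and 0.06 for replicates 1 to 4, less than the spread among the replicates of either time. The 4 h change was 0.03 (95% interval -0.16 to 0.22, adjusted p = 0.939). A second, dim probe set of cpl-1 had means of 4.64 ± 0.08 at 0 h, 4.83 ± 0.08 at 1 h, 4.93 ± 0.31 at 2 h and 4.66 ± 0.12 at 4 h (SD, n = 4, 2, 2 and 4). Its change at 2 h (0.29, adjusted p = 0.329) differed in size from that of the bright one (0.06), and neither passed.

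The cathepsin Z-like genes did not pass either. The gene cpz-1, known for a role in moulting, gave 11.16, 11.23, 11.62 and 11.42 at 0 h, 11.38 and 11.12 at 1 h, 11.38 and 11.17 at 2 h, and 11.04, 11.17, 11.57 and 11.29 at 4 h. Its 4 h change of -0.09 (95% interval -0.37 to 0.18, adjusted p = 0.864) was the only value below 0 among the 10 genes at that time. For cpz-2 the signals were 8.53, 8.70, 8.81 and 8.81 at 0 h, 8.89 and 8.63 at 1 h, 8.82 and 8.73 at 2 h, and 8.71, 8.87, 9.02 and 8.95 at 4 h. The groups overlapped, although the 4 h array was higher by 0.17, 0.17, 0.20 and 0.14 than the 0 h array of its number. The 4 h change was 0.17 (95% interval -0.03 to 0.37, adjusted p = 0.508), and 0.368 over 12 arrays or 0.167 over 8 once the replicate block was entered.

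Asked for a change at any time, the moderated F test called cpr-3 (adjusted p = 0.000613), cpr-4 (0.0318) and cpr-8 (0.033), thus 3 of 10 genes where 1.91% of all genes were called. In that test cpr-1 (0.0613) and cpr-5 (0.0816) missed the threshold. With the replicate block the test called cpr-1, cpr-3 and cpr-4, again 3 genes.

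The wider digestive and lysosomal machinery was read from lists of known genes. Of 16 other papain-like genes measured, 1 rose, 0 fell and 15 did not pass at 4 h, with a median change of -0.05, against -0.01 over all genes. The gene that rose was F32H5.1, by 0.40 (adjusted p = 0.0295), a call lost without any one of replicates 1, 2 and 4 at 0 h and replicates 3 and 4 at 4 h (at most 0.0966) and also when fitted on the 8 arrays of these times alone (0.0514). A further gene with a cpr symbol, cpr-9, is among these 16 and was singled out after its values were seen. Its log2 signal averaged 11.43 ± 0.14 at 4 h, against 11.3 ± 0.20 at 0 h (SD, n = 4 each), a change of 0.13 (95% interval -0.11 to 0.37, adjusted p = 0.737). Neither of the 2 cystatin genes passed, also without adjustment: cpi-1 changed by -0.12 (adjusted p = 0.76) and cpi-2 by 0.01 (adjusted p = 0.982).

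Among 15 aspartyl protease genes, which encode acid proteases of the cathepsin D type, 0 passed at 4 h in limma, with a median of 0.12. Without adjustment, 5 were higher and 0 lower at a p under 0.05, where 13% of all genes differed in either direction. Examples were asp-17 at 0.70 (adjusted p = 0.0602, and 0.0285 over 12 arrays with the replicate block) and asp-3 at 0.29 (adjusted p = 0.141). At 2 h 1 of the 15 rose, asp-17, by 1.22 (adjusted p = 0.0156). That value rested on replicate 2 at 2 h, without which it was 0.69 (adjusted p = 0.178). Its mean log2 signal was 5.01 ± 0.16 at 0 h, 5.34 ± 0.20 at 1 h, 6.24 ± 0.76 at 2 h and 5.71 ± 0.11 at 4 h (SD, n = 4, 2, 2 and 4).

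Of 26 genes of peptide uptake and other digestive peptidases, 4 rose and 0 fell at 4 h, with a median of 0.04. They were pept-1, the intestinal dipeptide transporter gene (0.91, adjusted p = 0.000127), the cathepsin A-like carboxypeptidase genes ctsa-4.2 (0.82, adjusted p = 0.00917) and ctsa-1.2 (0.53, adjusted p = 0.0368), and the dipeptidyl peptidase-like gene dpf-6 (0.70, adjusted p = 0.00122). The call of ctsa-1.2 was lost without any one of 7 arrays (adjusted p up to 0.114). At 2 h only dpf-6 of the 26 passed (0.72, adjusted p = 0.00736), and not without replicate 2 at 2 h (adjusted p = 0.155).

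**Figure D4:**
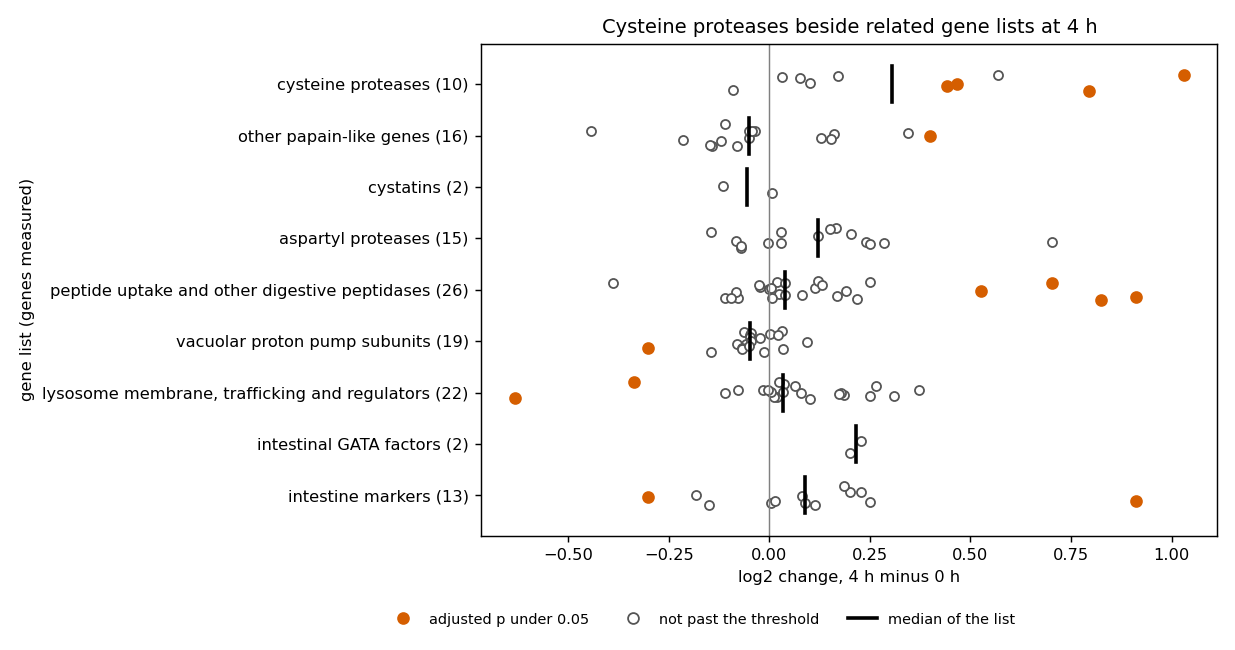
Log2 change at 4 h from 0 h of the cysteine protease genes and of related gene lists, 1 point per measured gene, with the number of genes in brackets. Filled points have an adjusted p under 0.05 and black bars are medians, which lie at 0.31 for the cysteine proteases and between -0.05 and 0.21 for the other lists.

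Among the 19 subunit genes measured for the vacuolar proton pump, which acidifies lysosomes and the gut lumen, 0 rose and 1 fell, with a median of -0.05. The fall was that of vha-6 (-0.30, adjusted p = 0.042), lost without any one of 11 arrays (adjusted p up to 0.127). Of 22 genes of the lysosomal membrane, its trafficking and its regulators, 0 rose and 2 fell at 4 h, with a median of 0.03. The transcription factor gene mxl-3, known as a repressor of lysosomal lipase genes in fed animals, fell by 0.63 (adjusted p = 0.0203), a call lost without any one of replicates 1 and 2 at 0 h and replicates 3 and 4 at 4 h (adjusted p up to 0.0725). The lysosomal membrane gene lmp-2 fell by 0.34 on its brighter probe set (adjusted p = 0.038), a call lost without any one of 7 arrays (adjusted p up to 0.118), while its other probe set changed by 0.02 (adjusted p = 0.977). With the replicate block lmp-2 did not pass (adjusted p = 0.0523 over 12 arrays).

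Of 13 intestinal markers measured, 1 rose and 1 fell at 4 h (pept-1 and vha-6, above), with a median of 0.09. At an unadjusted p under 0.05, 5 were higher and 2 lower, where 13% of all genes differed in either direction. After subtraction of each gene's own mean, the list median lay at 0.00 to 0.07 on the 4 h arrays, against -0.09 to 0.02 on the 0 h arrays. Its summed linear signal was 25654 to 27074 at 4 h, against 24923 to 26865 at 0 h, so the ranges overlapped. That sum mainly follows vit-6 and vit-2, with mean log2 signals of 13.9 and 12.62 over all arrays, against 10.71 for the next, erm-1. It therefore says little about the other markers. The intestinal GATA factor genes elt-7 (0.23, adjusted p = 0.144) and elt-2 (0.20, adjusted p = 0.347), counted among the 13 markers, did not pass at 4 h. They did not pass at 1 h or 2 h either. In limma at an unadjusted p under 0.05, both were higher at 2 h and 4 h, and elt-7 also at 1 h (0.26). At 2 h the change was 0.40 for elt-2 (unadjusted p = 0.00254) and 0.19 for elt-7 (unadjusted p = 0.0445). Their median lay at -0.03 to 0.16 on the 4 h arrays, against -0.20 to -0.12 on the 0 h arrays, so these ranges did not overlap. Their part in the changes of the proteases was not tested. No gene passed at 4 h in limma among 7 muscle, 8 neuron, 6 hypodermis, 7 pharynx and 8 germline markers, with list medians of -0.03, 0.00, 0.00, -0.05 and 0.05. At an unadjusted p under 0.05 it was 1, 0, 1, 0 and 0 of them, all lower.

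The genes whose values most resembled those of the called proteases over the 12 arrays were read as a description, since all share the same arrays and times. Closest to cpr-3 were Y6D1A.2 (Pearson's r = 0.975), the P-glycoprotein transporter gene pgp-9 (0.958) and warf-1 (0.958). These had log2 changes at 2 h of 1.11, 1.42 and 1.01 and smaller ones at 4 h of 0.74, 0.99 and 0.66. Without probe sets marked as shared or cross-hybridising, Y6D1A.2 was read by another probe set, with a 4 h change of 0.33 (adjusted p = 0.222). Closest to cpr-1 were the glutamine synthetase gene gln-3 (r = 0.944), the scavenger receptor gene scav-4 (0.934) and F32D8.12 (0.929), with 4 h changes of 0.55, 0.61 and 0.66. Closest to cpr-4 were lact-3 (0.949), the lysozyme gene lys-4 (0.94) and the solute carrier gene slc-17.6 (0.934). Their changes were 0.04, 0.26 and 0.03 at 2 h and 0.31, 0.69 and 0.48 at 4 h, that of lact-3 not past the threshold (adjusted p = 0.0916).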

How the data were processed

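Total RNA of 12 samples was amplified to cDNA with a NuGEN kit and hybridised to Affymetrix arrays, per the labels. The authors deposited 1 log2 signal per probe set and array, summarised with RMA, per the submitters' processing notes. Its version is not given in the sources used here, nor is a build. That the base is 2 was inferred from RMA and from the range of the values (1.51 to 14.36). No scanner files were used, so signal over background was not assessed, and the number of arrays limits precision.

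From these values, a linear model with 1 mean per time was fitted to all 22548 probe sets and 12 arrays with limma 3.58.1 in R 4.3.3 (8 residual and 5.03 prior degrees of freedom), so that all times share 1 estimate of the spread. Benjamini-Hochberg adjustment of the two-sided p-values ran over every probe set (threshold 0.05). The fit was run on simulated data with independent noise on each array and no pairing of replicates. As the real arrays differ in this, that run does not bear on the calls given here. Platform annotation gave 1 symbol to 20766 probe sets, several to 887 and none to 895. By RefSeq gene identifier 20701 matched, which changed 0 symbols.

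The members and lists were chosen with earlier results of these data known. The rule for naming genes took all members, of each list up to 4 called genes or the 2 with the smallest p at 4 h, and the 3 genes most correlated with each of 3 called members. Lists covered papain-like genes, cystatins, aspartyl proteases, peptide uptake, proton pump, lysosome, GATA factors and tissue markers. Same-numbered arrays of 4 h and 0 h correlated in their deviations from group means (r = 0.169 to 0.314, 4 pairs), against -0.29 to 0.147 for different numbers, so the numbers were taken to pair them; this rests on the values, not on the labels. Alternatives varied the arrays fitted, the replicate block, each array left out, dim probe sets, variance settings, normalization, centring, weights and probe-set choice. A fit within replicates 1 and 2 or 3 and 4 was added after seeing the data.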

Additional observations from a re-analysis of the deposited data

Results flagged for a closer look

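Among 90 sets of 4 arrays of 1 time examined for the cysteine proteases and the other named genes, 6 held an array whose gap to the others was large beside the range of the set. Chance marks about 1 set in 20, and none of the 6 was a cysteine protease gene. The 3 among genes resembling the proteases were all at 0 h: warf-1 in replicate 2 (4.92, others 5.27 to 5.32), lact-3 in replicate 2 (7.91, others 7.63 to 7.66) and slc-17.6 in replicate 4 (7.22, others 7.30 to 7.31). The other 3 were tissue markers: myo-3 in replicate 1 at 4 h (6.29, others 6.57 to 6.61), rol-6 in replicate 4 at 4 h (5.59, others 5.78 to 5.81) and glp-1 in replicate 4 at 0 h (10.37, others 10.56 to 10.59).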

How the results depend on the processing

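Of the 10 cysteine protease genes, 4 were called at 4 h against 0 h, and 1 to 5 when single arrays were left out. The count was 1 within replicates 1 and 2 and 1 within replicates 3 and 4, where fewer arrays were compared. Leaving out replicate 3 at 4 h, or replicate 1 at 0 h, gave 2, and leaving out replicate 3 or 4 at 0 h gave 1. At 2 h, 1 gene was called, and 1 without any single array. It was 0 with replicates 1 and 2 alone at 0 h, and 0 without probe sets marked as shared or cross-hybridising, which removes cpr-3. At 1 h, and from 2 h to 4 h, 0 were called in limma in each alternative run. The F test called 3, 5 with array weights, and 1 to 4 without single arrays. With the replicate number as a block, 5 were called at 4 h over the 12 arrays and 5 over the 8 of these times, the added gene being cpr-5. The 8 arrays alone gave the same 5 without the block. With it, 1 was called at 2 h and 3 in the F test. Over 12 arrays, beside cpr-5, asp-17 (0.0285) and lmp-2 the block changed no call of a gene named at 4 h. On the 8 arrays it added F32H5.1 (adjusted p = 0.0245, against 0.0514 without it) and vha-6 (0.0395, against 0.0656). There it ended the call of lmp-2 (0.0568, against 0.0317). At 2 h it ended that of dpf-6 on the arrays of 2 h and 0 h alone (adjusted p = 0.121, against 0.0215 there without it) and not over 12 arrays (0.0101). Those arrays alone ended the 2 h call of asp-17, with the block (0.111) or without it (0.0567). Without marked probe sets lmp-2 changed by 0.0205 at 4 h, through its other probe set. Of 1720 single-gene values under alternatives, 1588 kept their call and sign, or stayed below the threshold and within the replicate spread. Where a call was kept, its size was not compared. Of the rest, 94 lost a call, 24 gained one and 13 moved by more than the replicate spread while below the threshold. In 1 value, of lmp-2, the sign turned with a call involved. Below the threshold in both fits, 50 turned their sign. The median change of all probe sets at 4 h lay between -0.01 and 0.00 under each scaling. Calls at 1 h and 2 h rest on 2 arrays, and probe sets near the lower quartile may understate changes.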
